A study of Drosophila melanogaster with 7 samples.

Results

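The CD36-like scavenger receptors of Drosophila melanogaster were followed in the larval fat body as 10 genes chosen by name from the 14804 genes listed: crq, santa-maria, CG7227, emp, pes, ninaD, CG3829, CG10345, CG2736 and CG31741. All 10 were found, 8 of them had at least 1 sequenced fragment, and 7 had a mean level high enough to be tested. The study asked how the fat body, the main humoral immune and storage organ of the larva, responds when an overgrowing tissue is present elsewhere in the animal. Control fat bodies came from wandering larvae of the cross of Bx Gal4 with w1118. RasV12 fat bodies came from wandering larvae of the cross of Bx Gal4 with UAS-RasV12, which carries a dominant-active form of Ras. Both groups therefore carry the Bx Gal4 driver, which is active in wing discs and salivary glands, so the transgene was not aimed at the organ that was sequenced. Each group had 3 replicates, and each replicate pooled the fat bodies of 40 larvae with the gonads left out. The study itself singled out santa-maria and CG7227 from these libraries, so the values of those 2 genes are no independent evidence of a direction.

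CD36 proteins are cell surface and lysosomal receptors with a large outer loop held by a membrane anchor at each end. They bind lipids, lipoproteins, modified lipids and the phosphatidylserine of dying cells. In flies, crq (croquemort) is known as the receptor with which macrophages take up apoptotic cells, pes (peste) for the entry of mycobacteria into cultured fly cells, and ninaD and santa-maria for the uptake of carotenoids from which the visual pigment is made. The larval fat body takes up and releases lipid carried by lipoproteins in the blood, so receptors of this kind are of interest there beyond immunity.

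Levels are given as scaled FPKM, sequenced fragments relative to exon length and library depth, after each library was set to a common 75th percentile. The 6 libraries compared rest on 2910838 to 7328089 fragments in controls and 4649422 to 7305940 in RasV12 replicates, as worked out from the deposited confidence bounds. All 10 fat body markers checked passed the filter, with summed levels of 113171 to 171026 in controls and 65879 to 115495 in RasV12 replicates. RasV12 replicate 2 stood farthest from the controls, at 0.966 to 1.05 on a log2 scale, whereas RasV12 replicate 3 was at 0.678 from control replicate 2. Because 40 fat bodies were pooled, fewer cells of a kind and less RNA in each cell cannot be told apart. The labels do not say that replicates came from separate crosses, so p-values measure the spread between these samples.

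The members differed widely in their control levels. CG2736 stood first with a mean of 685 ± 94.0 scaled FPKM (SD, n = 3) and ranked 196 of the 14804 genes. CG3829 followed with 141 ± 31.0, then santa-maria with 64.4 ± 32.2, crq with 50.4 ± 3.23, emp with 22.6 ± 7.47, pes with 18.9 ± 3.33 and CG7227 with 6.59 ± 3.21. Among neighbours in this order, santa-maria and crq overlapped in their control values, and so did emp and pes, whereas the other neighbours were set apart in all 3 controls. Near the bottom, ninaD was carried by 3 fragments in control replicate 2, 1 fragment in control replicate 3 and none in the other 4 libraries. CG10345 and CG31741 were listed at 0 in all 6 libraries. A count of 0 allows up to 3 fragments in a library, which for ninaD corresponds to 0.215 to 0.800 scaled FPKM at the depths of the 6 libraries. These genes overlap no other annotated gene. Expression of CG10345 and CG31741 was not detectable at this depth, and ninaD had no more than 3 fragments in any library.

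**Figure D1:**
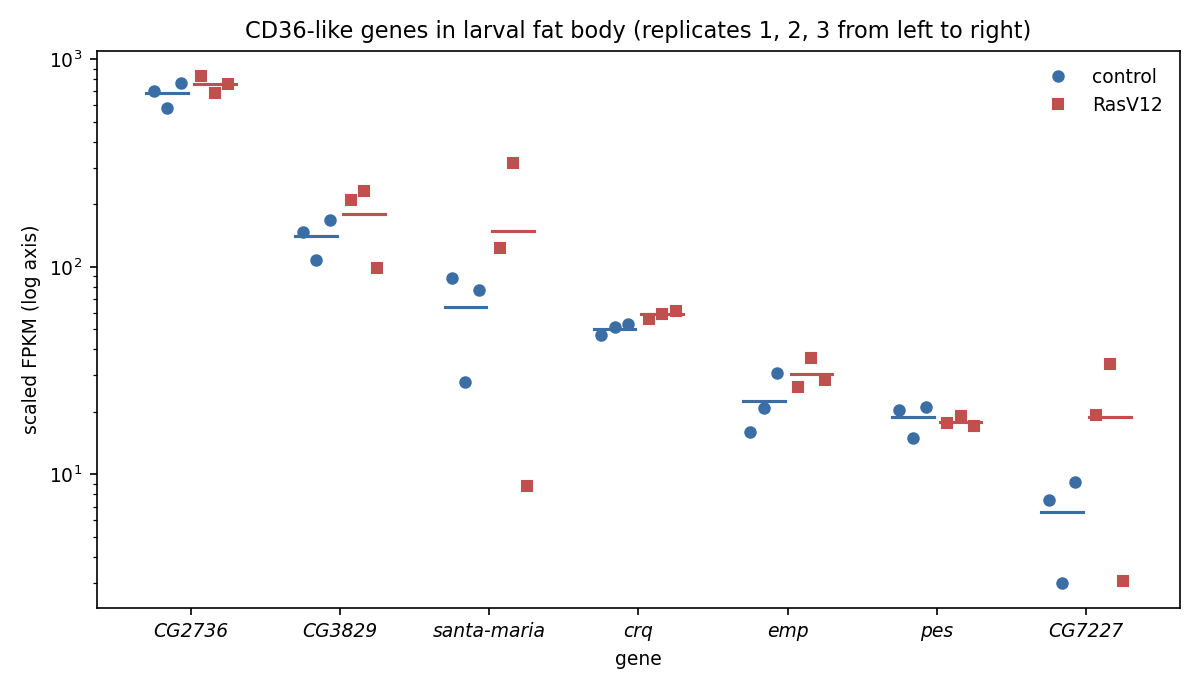
Scaled FPKM on a log axis of the 7 tested genes, ordered by control mean, with 1 circle for each control and 1 square for each RasV12 library and a bar at each group mean (n = 3). The RasV12 values of santa-maria run from 8.81 to 315 and those of CG7227 from 3.07 to 34.2, while those of crq stay between 56.2 and 61.2.

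The signal of the family was carried mostly by CG2736, a gene known here only by its number. Summed over the 10 genes, the level was 1026, 810 and 1131 scaled FPKM in controls and 1284, 1382 and 979 in RasV12 replicates. CG2736 took 68.3%, 72.1% and 68.1% of that sum in controls and 64.7%, 49.7% and 77.8% in RasV12 replicates. The share of santa-maria was 8.61%, 3.44% and 6.80% in controls. In RasV12 replicates it was 9.60%, 22.8% and 0.900%, so that both the highest and the lowest share of this gene were found with RasV12.

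**Figure D2:**
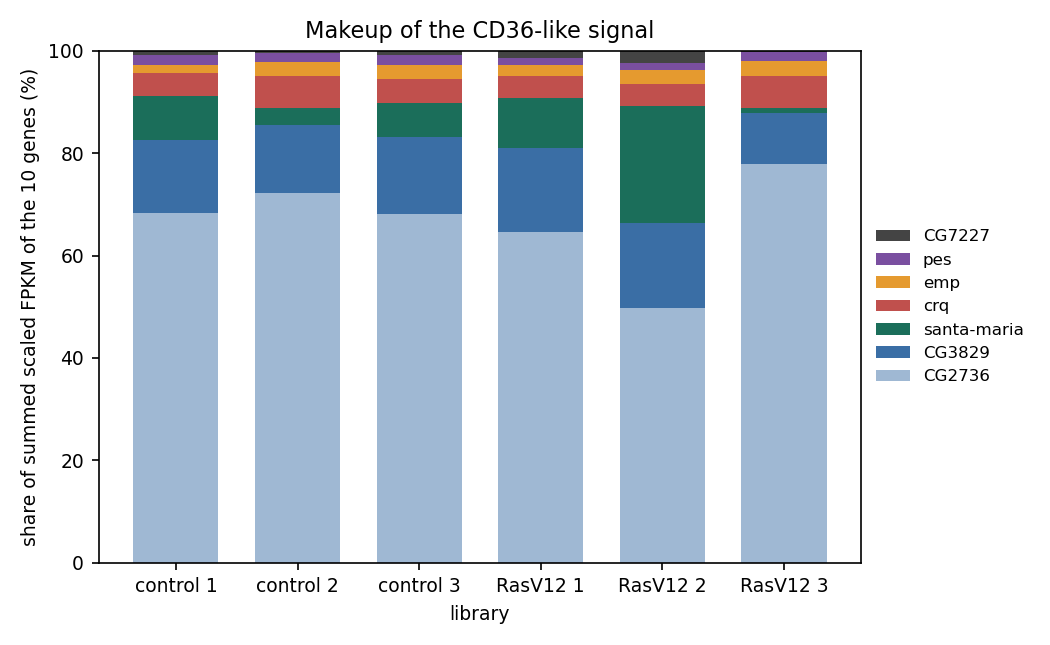
Share, in percent, of the summed scaled FPKM of the 10 genes taken by each gene in each of the 6 libraries. CG2736 is the largest part throughout, and santa-maria reaches 22.8% in RasV12 replicate 2 against 0.900% in RasV12 replicate 3.

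Several members lie next to each other in the genome (build BDGP5). On chromosome 2R, CG2736 (20860944 to 20862894), emp (20864127 to 20872321) and CG3829 (20873478 to 20878012) follow each other with gaps of 1232 and 1156 bases and no gene between them. On chromosome 2L, pes (7987113 to 7994182) and CG7227 (7994837 to 7998144) are 654 bases apart. A pair with little or no signal, ninaD (18081630 to 18083608) and CG31741 (18084268 to 18086156), is 659 bases apart on the same chromosome. The remaining members, santa-maria (2L, 7445345 to 7451165), crq (2L, 448254 to 453023) and CG10345 (3R, 12422795 to 12430510), stand alone.

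Neighbours did not share a level. CG2736 was 18.9 to 43.6 times as abundant as the adjacent emp in the 6 libraries, and CG3829 was 3.47 to 9.12 times as abundant as emp. The ratio of pes to CG7227 was 2.71, 4.99 and 2.29 in controls, and 0.917, 0.556 and 5.59 in RasV12 replicates, so that their order was turned in RasV12 replicates 1 and 2. The change in that ratio came with CG7227, as pes stayed between 15.0 and 21.1 scaled FPKM in all 6 libraries.

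The comparison of RasV12 with control fat bodies asked whether the receptors were transcribed at another level when the overgrowing tissue was present. No member passed an adjusted p of 0.05 in limma with Benjamini-Hochberg adjustment over 7575 genes, where 0.106% of genes did so (8 genes). The adjusted p-values of the members were 0.610 to 0.949. None had an unadjusted p under 0.05 either, a limit that 9.40% of all tested genes passed, and 3.29% with a change over 2-fold. The difference, RasV12 minus control on the log2(scaled FPKM + 1) scale, was above 0 in 6 of 7 members with a median of 0.28, against 3808 of 7575 genes tested and a median of 0.00 over them. The members' median was 0.10 without control replicate 2, 0.12 without RasV12 replicate 1 and 0.49 without RasV12 replicate 3. The RasV12 values of 1 member, crq, all lay above those of the controls, as those of 7.67% of all genes did. No member lay below all controls, against 7.08% of genes.

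The phagocytic receptor crq was the steadiest member. It had 46.9, 51.1 and 53.2 scaled FPKM in controls and 56.2, 59.5 and 61.2 in RasV12 replicates, on 338 to 1408 fragments. The groups did not overlap, but the ratio of means was 1.17. Its log2 difference was 0.22 with a standard error of 0.13 and a 95% interval of -0.08 to 0.53 (limma, adjusted p = 0.610). Across all 6 libraries crq ranged over 0.38 log2 units, and 12.6% of the tested genes had a smaller range. It overlaps the gene ex by 448 bases, where ex was at 1.61 to 4.24 scaled FPKM. With each library left out in turn the log2 difference stayed between 0.17 and 0.26.

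Since crq is known from macrophages, markers of hemocytes, the blood cells that can adhere to the fat body, were set beside it. Of 9 hemocyte genes tested, 5 were higher with RasV12 at an unadjusted p under 0.05 and over 2-fold, and none was lower, while 2.32% of all genes were higher by this rule. The log2 difference was above 0 in 6 of the 9. The others, srp and the prophenoloxidase genes proPO-A1 and CG8193, had -0.18, -0.57 and -0.72, with overlap between the groups. The clotting protein gene Hml was listed at 0 in all 3 controls and in RasV12 replicate 1, and at 13.9 and 11.0 scaled FPKM in RasV12 replicates 2 and 3. He was listed at 0 in all 3 controls and RasV12 replicate 3, and at 21.1 and 28.6 in RasV12 replicates 1 and 2. Both genes overlap a more abundant gene by 12 and 80 bases, respectively. The other 3 called genes were nimC1 and eater, receptors of phagocytes, and the peroxidase gene Pxn. Pxn had 4.72, 6.09 and 9.57 scaled FPKM in controls and 11.3, 24.4 and 16.8 in RasV12 replicates. The groups overlapped in nimC1, which had 0.593, 2.09 and 3.96 in controls and 6.57, 9.95 and 3.80 in RasV12 replicates. Pxn overlaps the gene CG16986 by 87 bases, where CG16986 had a control mean of 14.8 scaled FPKM. Pxn, eater, nimC1 and Sr-CI were above 0 in all 3 controls. The summed level of the hemocyte list was 118 to 190.1 in controls and 158 to 233 in RasV12 replicates. Most of it came from genes that were not called, such as srp, which had 101 to 124 in controls and 81.9 to 106 in RasV12 replicates. In RasV12 replicate 3, where the sum was 233, proPO-A1 and CG8193 had 41.8 and 68.2. The part of hemocytes in the crq values was not tested.

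Santa-maria varied more than nearly all other genes. It had 88.4, 27.9 and 76.9 scaled FPKM in controls and 123, 315 and 8.81 in RasV12 replicates. The first 2 RasV12 replicates were above every control, and the other one was below every control. The mean was 64.4 ± 32.2 in controls and 149 ± 155 with RasV12 (SD, n = 3), a ratio of 2.31, yet the log2 difference was 0.31 with a standard error of 1.24 and a 95% interval of -2.65 to 3.28 (limma, adjusted p = 0.949). Its range over the 3 RasV12 replicates, 5.01 log2 units, was wider than that of 99.4% of the tested genes. The spread was wider than counting error: the lowest value rested on 138 fragments and the highest on 5752, and the deposited FPKM bounds were 7.36 to 10.4 in RasV12 replicate 3 and 368 to 388 in RasV12 replicate 2.

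The value for santa-maria depended on single libraries. Without RasV12 replicate 3 the log2 difference was 1.76, with an unadjusted p of 0.028 and an adjusted p of 0.249 in limma. Leaving out RasV12 replicate 2 turned it to -0.75, and the ratio of means then fell from 2.31 to 1.03. It was also below 0 without control replicate 2 (-0.20) and without RasV12 replicate 1 (-0.08).

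CG7227 had the same kind of spread at a lower level. It was at 7.54, 3.01 and 9.21 scaled FPKM in controls, on 47 to 100 fragments, and at 19.3, 34.2 and 3.07 in RasV12 replicates. Again RasV12 replicates 1 and 2 were above all controls while RasV12 replicate 3 lay among them. The ratio of means was 2.86, and the log2 difference was 1.02 with a standard error of 0.80 and a 95% interval of -0.90 to 2.94 (limma, adjusted p = 0.697). Without RasV12 replicate 3 it was 1.92 with an unadjusted p of 0.0054 and an adjusted p of 0.128, and without RasV12 replicate 2 it was 0.37.

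CG3829 followed this order with a smaller swing. It was measured at 146.5, 108 and 169 scaled FPKM in controls and at 211, 231 and 98.4 in RasV12 replicates, so that RasV12 replicate 3 was again below every control. The log2 difference was 0.28 with a standard error of 0.36 and a 95% interval of -0.58 to 1.14 (limma, adjusted p = 0.803). Without RasV12 replicate 3 it was 0.66 with an unadjusted p of 0.029 and an adjusted p of 0.253. It fell to 0.05 without RasV12 replicate 2, 0.10 without control replicate 2 and 0.12 without RasV12 replicate 1. RasV12 replicate 3 is the library in which these 3 genes were lowest or nearly so, so their values without it are higher by construction and are no evidence of a difference. In that setting 3 of the 7 members were higher at an unadjusted p under 0.05 (8.09% of all genes tested) and 4 of 7 lay above all controls (18.0% of genes). Over 2-fold were santa-maria and CG7227, where 3.96% of genes were higher by both limits. None of the members passed the adjusted p, which 0.803% of genes passed.

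**Figure D3:**
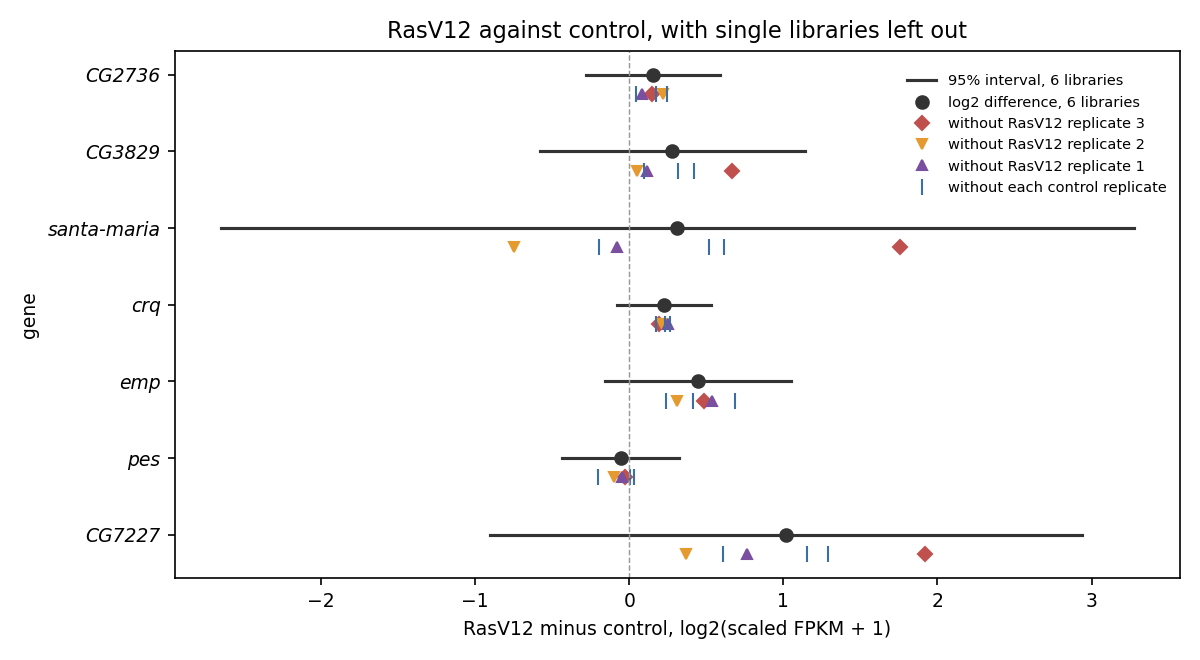
Difference between RasV12 and control on the log2(scaled FPKM + 1) scale for the 7 tested genes, with the 95% interval from all 6 libraries (black) and the values with each RasV12 library (coloured symbols) or each control library (blue ticks) left out. All 7 intervals include 0, and santa-maria moves from -0.75 without RasV12 replicate 2 to 1.76 without RasV12 replicate 3.

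Of the remaining members, emp, named for its place in epithelial membranes, had 16.1, 20.9 and 30.7 scaled FPKM in controls and 26.4, 36.3 and 28.4 in RasV12 replicates. Control replicate 3 overlapped the RasV12 range. Its log2 difference of 0.45 had a standard error of 0.25 and a 95% interval of -0.16 to 1.05 (limma, adjusted p = 0.610). Without control replicate 3 it was 0.69 with an unadjusted p of 0.019 and an adjusted p of 0.454 in limma. As that replicate held the highest emp control value, the difference without it is higher by construction and is no evidence. The difference was 0.24 without control replicate 1 and 0.31 without RasV12 replicate 2. The abundant CG2736 had 700.3, 585 and 771 in controls and 829.9, 688 and 762 in RasV12 replicates, and the groups overlapped. Its log2 difference was 0.15 with a 95% interval of -0.28 to 0.59 (limma, adjusted p = 0.787). The mycobacterial entry factor pes was at 20.4, 15.0 and 21.1 in controls and 17.7, 19.0 and 17.2 in RasV12 replicates, with all RasV12 values inside the control range. Its log2 difference of -0.05 had an interval of -0.44 to 0.33 (limma, adjusted p = 0.923).

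The tested members thus differed in how their values were ordered over the libraries. In santa-maria, CG7227 and CG3829, RasV12 replicate 2 was highest, RasV12 replicate 1 next, and control replicate 2 and RasV12 replicate 3 were the 2 lowest. Among all genes tested, 161 (2.13%) had this order, and 886 (11.7%) had control replicate 2 and RasV12 replicate 3 as their 2 lowest libraries, which was also so in pes. The order was read from these members, so the shares are background and no test of it. Over the 6 libraries, the log2 levels of santa-maria and CG3829 had a Pearson r of 0.947 and a Spearman rho of 0.943 (exact permutation p = 0.0028 and 0.017, and 0.058 and 0.175 after adjustment over the 21 pairs of members). For CG7227 and CG3829 r was 0.979 and rho 0.943 (exact permutation p = 0.0056 and 0.017, adjusted 0.058 and 0.175), and for santa-maria and CG7227 r was 0.926 and rho 0.886 (exact permutation p = 0.011 and 0.033, adjusted 0.078 and 0.233). None of the 21 pairs passed an adjusted p of 0.05. With the 2 libraries farthest from the median of the first gene left out, r was 0.932, 0.988 and 0.941 for the 3 pairs, respectively. This step is no sign of stability, since over 4 libraries r also came to 0.986 for crq and santa-maria (-0.10 over all 6), 0.982 for crq and CG7227 (0.257) and 0.992 for CG3829 and CG2736 (0.391). The adjacent genes pes and CG7227 had an r of 0.454 (rho 0.543, exact permutation p = 0.375 and 0.297, adjusted 0.788 and 0.864), and crq and emp an r of 0.844 (rho 0.714, exact permutation p = 0.036 and 0.136, adjusted 0.190 and 0.715).

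Genes with patterns most like those of the members were picked by Pearson r over the 6 libraries, as a description. For santa-maria these were CG1607 (r = 0.994), the chromatin remodelling ATPase gene Iswi, the Polycomb-associated RYBP, the actin regulator SCAR and CG7841 (r = 0.989). The members CG3829 and CG7227 ranked 59 and 89 among all tested genes by likeness to santa-maria. For CG7227 they were CG32138 (r = 0.997), the lipocalin gene NLaz (r = 0.997), CG8557, PR2 and the mitochondrial iron carrier gene mfrn (r = 0.991), with CG3829 at rank 17. For crq they were CG5783 (r = 0.981), CG11825, the copper transporter gene Ctr1A, the peptidoglycan recognition protein gene PGRP-SD and CG8586 (r = 0.976). PGRP-SD rose from a mean of 49.2 to 210.2 scaled FPKM, a log2 difference of 2.12 with an unadjusted p of 0.0013 in limma, whereas crq moved by 0.22.

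The library order of santa-maria was also set beside genes of the ecdysone response, the steroid cascade that times the end of larval life. Of 13 such genes tested, 7 had control replicate 2 and RasV12 replicate 3 as their 2 lowest libraries, against 11.7% of all genes, namely Eip75B, Eip78C, br, Hr46, Hr4, Hr39 and Fbp1. Of the 13, 1 gene (7.69%), Eip78C, had the full order of santa-maria, against 2.13% of all genes. Among genes with those 2 lowest libraries, this was 1 of 7 in the list and 161 of 886 over all genes tested. The nuclear receptor gene Hr4 had 10.2, 2.63 and 7.39 scaled FPKM in controls and 7.63, 22.5 and 1.06 in RasV12 replicates. Hr46, which encodes another nuclear receptor of this cascade, had 5.34, 1.30 and 3.28 in controls and 5.05, 7.79 and 0.634 in RasV12 replicates. As in santa-maria, RasV12 replicate 2 was highest and RasV12 replicate 3 lowest in both. No tested gene of the list was called in either direction between the groups, and the median log2 difference of the 13 was 0.01. Eip93F, also on the list but under the filter, was at 0 to 0.147 in controls and 1.31, 2.12 and 0.786 in RasV12 replicates, without overlap. The most abundant genes of the list, Fbp1, which encodes the fat body receptor for storage proteins, and the early gene br, had log2 differences of 0.05 and -0.15 (limma, adjusted p = 0.967 and 0.891).

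A different order was seen in the prophenoloxidase genes proPO-A1 and CG8193, whose products melanise wounds and are made by crystal cells. Like Hr4 and Hr46, these genes were picked after their values had been seen. proPO-A1 had 3.05, 28.9 and 8.86 scaled FPKM in controls and 1.02, 3.25 and 41.8 in RasV12 replicates, and CG8193 had 5.24, 44.9 and 14.4 in controls and 1.14, 5.70 and 68.2 in RasV12 replicates. They were highest in RasV12 replicate 3 and control replicate 2, the libraries in which santa-maria was lowest. The summed level of 14 testis genes was 0 to 8.56 in controls and 13.7, 269.6 and 46.8 in RasV12 replicates, and the summed fat body level was lowest, at 65879, in the same RasV12 replicate 2 in which santa-maria was highest. The part of any of these in the santa-maria, CG7227 and CG3829 values was not tested.

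**Figure D4:**
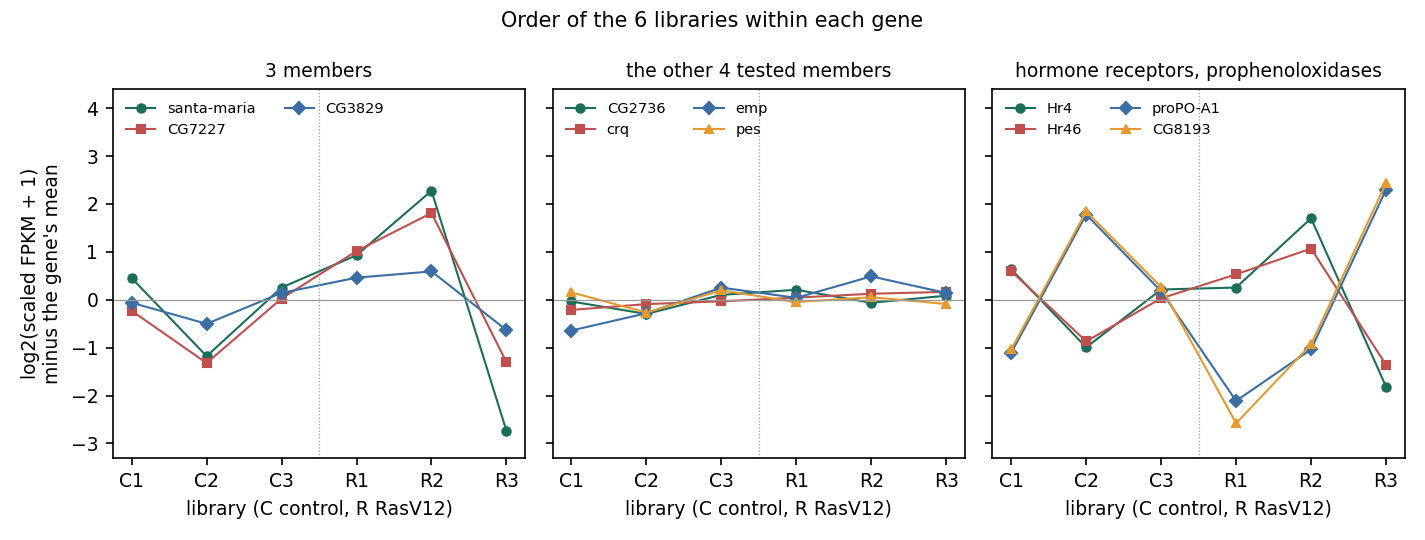
Level of each gene in each library as log2(scaled FPKM + 1) minus the mean of that gene over the 6 libraries (C1 to C3 controls, R1 to R3 RasV12), with lines only joining the points of a gene. santa-maria, CG7227 and CG3829 (left) dip in control replicate 2 and RasV12 replicate 3, as Hr4 and Hr46 do (right), while proPO-A1 and CG8193 peak there and the other 4 members (middle) stay within a narrower band.

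Outside the 10 genes, 4 further genes of the CD36 family were measured, and 1 passed the filter. CG1887, the gene of the lysosomal receptor debris buster (3L, 1893416 to 1910197), had 107, 95.2 and 140.4 scaled FPKM in controls and 110.6, 72.8 and 78.4 in RasV12 replicates. That put it near CG3829 in level. Its log2 difference was -0.39 with a standard error of 0.23 (limma, adjusted p = 0.619). Snmp, a receptor gene of pheromone-sensing neurons, was at 0.536 to 0.927 in controls and 0 to 0.296 in RasV12 replicates on 9 fragments or fewer, and it lies wholly within the span of SNF4Agamma. CG7422 rested on 2 fragments or fewer, and CG40006 was at 0.166 to 0.744 scaled FPKM.

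Other genes of the carotenoid and retinoid pathway, in which ninaD and santa-maria are known to act, had little or no signal apart from pinta. The oxygenase gene ninaB, which acts after carotenoid uptake, and the photoreceptor dehydrogenase gene Pdh were listed at 0 in all 6 libraries, and CG7077 and ninaE rested on 3 fragments or fewer. Of 6 genes, the retinoid-binding pinta and the oxidoreductase ninaG were tested and none was called. pinta had 21.4, 34.0 and 23.8 scaled FPKM in controls and 20.6, 13.97 and 23.9 in RasV12 replicates. ninaG had 2.61, 3.74 and 4.20 in controls and 1.37, 1.70 and 2.02 in RasV12 replicates, without overlap. Its log2 difference was -0.74 with an unadjusted p of 0.016 and an adjusted p of 0.437 in limma.

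Of 10 tested genes for the engulfment of dying cells or microbes, which include the other routes beside crq, 2 were higher, against 2.32% of all genes, and none was lower, with a median log2 difference of 0.19. These were eater, at 0.763, 1.39 and 2.65 scaled FPKM in controls and 4.86, 9.95 and 3.93 in RasV12 replicates, and nimC1. Both of them and Sr-CI also count among the hemocyte markers. Sr-CI, a scavenger receptor of another class, had 2.21, 2.53 and 2.87 in controls and 5.09, 7.97 and 4.66 in RasV12 replicates, a log2 difference of 0.94 that missed the 2-fold limit (limma, unadjusted p = 0.0042, adjusted p = 0.341). The engulfment receptor drpr and its adaptor ced-6 had log2 differences of 0.08 and -0.15 (limma, adjusted p = 0.835 and 0.869). Like crq, drpr was steady, with 13.7 to 16.5 scaled FPKM in controls and 16.0 to 17.0 in RasV12 replicates.

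Among 10 tested genes of lipid and lipoprotein uptake and storage, none was higher and 1 was lower, with a median log2 difference of -0.04. The triglyceride lipase gene bmm had 143, 220.2 and 184 scaled FPKM in controls and 66.9, 63.5 and 129 in RasV12 replicates, without overlap. Its log2 difference was -1.12 with a standard error of 0.32 (limma, unadjusted p = 0.010, adjusted p = 0.406), and 0.964% of all genes were lower by this rule. The lipophorin receptor gene LpR2 was the list's only gene with the library order of santa-maria, at 0.888, 0.678 and 1.11 in controls and 1.92, 2.05 and 0.559 in RasV12 replicates.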

How the data were processed

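RNA was measured in 3 control and 3 RasV12 fat body samples. The authors mapped paired 100-base reads with TopHat 1.0.14, removed duplicates and deposited FPKM with 95% bounds per gene, made with Cufflinks 0.0.5 on the Ensembl annotation of BDGP5. FPKM are no counts, so no count model was used. Fragments behind a value were worked out from its bounds (88.9% of values between 0 and 30 fragments came within 0.05 of a whole number), so they cover counting error only. Run 3A served as control replicate 3, and its repeat run 3B and the merged table were alternatives. The authors' Cuffdiff comparisons hold fold changes and p-values and were not used.

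Libraries were brought to a common 75th percentile, taken over the genes that any library lists above 0. The filter kept genes averaging 1 FPKM or more over the 6 libraries. Groups were compared in limma 3.58.1 in R 4.3.3 (lmFit, eBayes with trend) after taking log2(scaled FPKM + 1), a scale that understates changes of low genes, and p-values were adjusted by Benjamini-Hochberg over all of them. The fit was also run on simulated data with known changes, in which all genes and libraries had the same relative spread beyond counting error. That setting does not cover a spread like that of santa-maria, so it cannot show how well such genes are called. Correlations between members used exact permutation over the 6 libraries. With 3 against 3 libraries an exact two-sided permutation test of a single value cannot go below 0.1, so none was used for differences.

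Members and the 13 gene lists were chosen with earlier results of these data known. Of 131 list names, 130 were matched (109 by symbol, the others through newer names or synonyms, which were used for matching alone, and 1 was an older name of santa-maria and was dropped). Named were all members, the other CD36 family genes, list genes past an unadjusted p of 0.05 and 2-fold or else the 2 most abundant, and the 5 genes most like santa-maria, CG7227 and crq. Drpr, ced-6, Sr-CI, srp, LpR2, the Lsp1 genes, Hr4, Hr46 and other ecdysone genes, proPO-A1, CG8193, Irk3, elav and n-syb were added after their values had been seen. Alternatives were a pseudocount of 0.1 or 5, no filter or a minimum mean of 5 FPKM, no scaling, median of ratios, robust eBayes, array weights, a replicate block and each replicate left out. Sequences were not used here.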

Additional observations from a re-analysis of the deposited data

How the results depend on the processing

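None of the 7 members passed an adjusted p of 0.05 in any of the 18 alternatives in limma, where the lowest was 0.128. The differences of crq, CG7227, emp, CG3829 and CG2736 kept their direction in all 18. That of santa-maria ran from -0.75 to 1.76 with single replicates left out, being -0.20 without control replicate 2 and -0.08 without RasV12 replicate 1. That of pes, -0.05 in the main analysis, was 0.16 with no scaling, 0.027 with array weights and -0.20 to 0.029 with single replicates left out. The number of genes at an adjusted p under 0.05 was 8, and it was 5 with run 3B, 4 with the mean of both runs, 5 with a pseudocount of 5, 16 with array weights and 5 to 61 with single replicates left out. At an unadjusted p and over 2-fold it was 249, and 128 with a pseudocount of 5, 157 with a minimum mean of 5 FPKM, 392 with array weights and 161 to 510 with single replicates left out. With no scaling the median of all genes shifted to 0.20, and the share of higher calls rose from 70.7% to 84.4%. In that setting crq, emp and CG2736 had differences of 0.44, 0.66 and 0.38 with unadjusted p-values of 0.023, 0.032 and 0.032 in limma, and emp had one of 0.041 with run 3B. Members without overlap numbered 1, and 2 with run 3B, 3 with no scaling and 1 to 4 with single replicates left out. The cause of these shifts was not tested.

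With the replicate number as a replicate block, 3 genes had an adjusted p under 0.05 and 250 were past the unadjusted rule. The labels do not say whether the numbers pair the libraries. Deviations of the same number had correlations of 0.0879, -0.168 and -0.150, and the highest was between control replicate 2 and RasV12 replicate 3 (0.353). These were deviations from the mean of 3 libraries, so they cannot settle whether the libraries were paired.

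Control replicate 3 had the fewest fragments, 2910838. The Malpighian tubule list had no gene left above a minimum mean of 5 FPKM. The median log2 difference of the hemocyte list was 1.23 in the main analysis and -0.18 with that minimum.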

Other observations

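Markers of other tissues were uneven over the libraries. Of 14 testis genes 3 were higher, against 2.32% of all genes, and none lower with RasV12, with a median log2 difference of 1.56. These were Mst84Da, Mst87F and ocn, which encode sperm proteins and reached 36.6, 50.5 and 24.0 scaled FPKM in RasV12 replicate 2. Of 4 tested larval midgut genes none was higher and 1 was lower (0.964% of all genes were), the protease gene Jon25Bi, at 17.3, 6.39 and 0.625 in controls and 0 to 0.335 in RasV12 replicates, and 4 of the 17 midgut genes were listed at 0 throughout.

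No gene was called in the fat body, muscle, salivary gland glue, neuron and Malpighian tubule lists. Of the 10 fat body markers, 1, the storage protein receptor gene Fbp1, had a log2 difference above 0 (0.05), and their median was -0.48. The storage protein genes Lsp1beta and Lsp1gamma lay below all controls without passing the 2-fold limit, at -0.79 and -0.86 (limma, unadjusted p = 0.044 and 0.082), while Lsp1alpha was at -1.46 (unadjusted p = 0.107) and Lsp2 at -0.45, with overlap. The 8 muscle genes summed to 29.7, 37.8 and 96.7 in controls and 8.94, 39.3 and 37.7 in RasV12 replicates, led by Act57B and up. Of the glue genes, Sgs7 had a log2 difference of -0.30 with overlap, on 8 fragments or fewer in each library. Sgs5 had one of -0.69 without overlap, on 11 fragments or fewer (limma, unadjusted p = 0.013, adjusted p = 0.421). The neuronal Syt1 and Syx1A had log2 differences of -0.01 and -0.14. Also on the neuron list, elav was at 0.460 to 0.827 in controls and 5.87, 1.37 and 0.510 in RasV12 replicates. There n-syb was at 0 to 0.173 in controls and 3.55, 0.182 and 0.573 in RasV12 replicates, on 17 fragments or fewer. The tubule genes Uro and NaPi-T were at 0.149 and 1.57 or less in controls and reached 5.20 and 3.04 in RasV12 replicates. Irk3, also on the tubule list but not tested, went the other way. It was at 4.08 in control replicate 1, at 0.0819 or less in the other controls and at 0.808 or less in RasV12 replicates.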
